A study of Rattus norvegicus with 90 samples.

Results

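Beside annotated transcripts, the deposited tables list genomic intervals as targets of their own, and the name of each is no more than its coordinates. The 200 intervals that took the most reads are described here. They were chosen by their level: for each library the percent of all estimated counts on each interval was taken, intervals of chromosome Y were left out, and the 200 with the highest median percent over 89 libraries were kept. They stand against 25095 intervals in all, 25072 of them outside chromosome Y, and against 40071 transcripts in the same tables. Each is called by its rank in that order, so that interval 1 took the most counts, and its position is given in the Rnor_6.0 build of the rat genome that the processing notes name. Since the levels themselves made the choice, they are given as a description and were not tested. The comparison of cell types is also a description, because the median over libraries of 3 cell types favours intervals present in at least 2 of them. The comparisons between times and doses within a cell type were not used by the choice and were tested.

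The libraries came from primary cells of Sprague-Dawley rats, isolated from tissue and not a cell line. Hepatocytes received vehicle, 0.025 mM or 0.125 mM thioacetamide-S-oxide, renal tube epithelial cells vehicle, 0.125 mM or 0.5 mM, and cardiomyocytes vehicle, 0.5 mM or 1.5 mM, each for 9 or 24 h and with 5 libraries in each of the 18 groups. Thioacetamide-S-oxide is a reactive metabolite of the liver toxicant thioacetamide, the vehicle was maintenance medium, and cells stayed in culture for a further 18 h after they had attached and before exposure. The hepatocytes and renal cells were bought cryopreserved. The labels do not say whether the 5 libraries of a group came from separate animals, so p-values measure only the spread between these cultures.

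Poly-A-enriched RNA-seq reads the RNA molecules that carry a poly-A tail, which includes messenger RNA and many long noncoding RNAs. A read that falls outside the annotated transcripts can come from a transcript that the annotation lacks, from an untranslated end longer than annotated, from an unprocessed RNA or from a repeated sequence, and a read table alone does not separate these. Kallisto, which made the tables, assigns each read to the targets it is compatible with and divides a read that is compatible with several, so estimated counts need not be whole. No gene annotation or genome sequence of the Rnor_6.0 build was used here. Which genes lie in or beside the intervals is therefore not stated, no sequence is shown, no function is given for any interval, and the markers of the 3 cell types were not checked.

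Estimated counts per library ranged from 11415878 to 61897142 over 89 libraries and transcripts took 84.1% to 95.3% of them. A further library, MS-183, a vehicle library of the hepatocytes at 24 h, stood apart: it held 2993135 estimated counts, of which 91.7% lay on intervals and 1.54% on the 200 intervals described here. In MS-183, 169 of the 200 intervals were below their median over the other libraries, and intervals 144, 96, 25 and 23 were more than 10-fold above it. MS-183 was left out of the choice of intervals and of the tests, and the hepatocyte vehicle group at 24 h then holds 4 libraries. The numbers called with it are given beside each comparison that rests on that group. The vehicle libraries of the hepatocytes at 24 h are numbered MS-181 to MS-185, whereas the other hepatocyte libraries are numbered MS-91 to MS-120. What this series of numbers stands for is not stated.

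Together the 200 intervals made up 2.21% to 13.4% of a library's estimated counts (median 4.33%). They took 40.9% to 84.1% of all counts on intervals, with a median of 61%, while the other intervals, those of chromosome Y included, shared the rest. Levels below are CPM, a library's estimated counts on an interval scaled to the same total in every library, and TPM, which also divides by length. Ranks and counts of intervals by CPM describe shares of reads, which grow with length, and only TPM compares levels of different intervals.

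Interval 1, chr14:46646819-46649470, 2652 bases long, had a median of 9615 CPM and of 5288 TPM over the 89 libraries, the highest on either scale. Its level ran from 528 to 32414 CPM. Interval 2, chr14:46634208-46645665, lies 1153 bases before it on chromosome 14 and had a median of 3847 CPM. Intervals 3, chr5:91126214-91132467, and 9, chr5:91135639-91140430, are also neighbours, 3171 bases apart, with medians of 3539 and 774 CPM. Intervals 4, chr1:11970745-11973641, and 8, chr1:11907094-11915036, lie 55708 bases apart, with medians of 2019 and 919.8 CPM. The first 10 therefore hold 3 pairs from the same stretches of chromosomes 14, 5 and 1.

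The remaining intervals of the first 10 lie alone. Interval 5, chr6:30631555-30634570, had a median of 1632 CPM, interval 6, chr4:180832445-180852444, of 1329 CPM, interval 7, chr1:126712215-126732214, of 1078 CPM and interval 10, chr5:76103091-76110237, of 744 CPM. After interval 1, the highest levels per length were those of interval 4, 989 TPM, and interval 5, 833 TPM, both of about 3 kb. Interval 6, which spans 20000 bases, reached 89.4 TPM.

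Reads were shared unevenly. Only 7 intervals had a median above 1000 CPM, 34 lay between 100 and 1000 CPM, 159 were below 100 CPM and 73 of these below 50 CPM. At the edge of the choice, the last 2 intervals chosen, chr10:46593510-46601730 and chr1:81400173-81406075, had medians of 33.6 and 33.4 CPM, and the next 2, chr17:32164671-32184670 and chr4:115446934-115448207, which were left out, had 33.4 and 33.2 CPM. The edge is thus not a step in level.

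The 200 intervals were shorter than the rest. Their median length was 9553.5 bases against 20000 bases for the other intervals, and 43 of them (21.5%) had the full 20000 bases against 55.8% of the others. In 19 of the 200 (9.5%) every estimated count in every library was whole within 0.001, against 4.21% of the other intervals, so most share at least some reads with another target. They lie on all 20 autosomes and the X chromosome, with 21 each on chromosomes 1 and 5 and 3 on the X chromosome. Apart from the stretches named above, intervals 110, chr3:147758364-147771665, and 172, chr3:147789660-147792517, are 17994 bases apart on chromosome 3, and intervals 164, chr7:11047938-11053832, and 165, chr7:11004286-11013180, 34757 bases apart on chromosome 7. Intervals 47, chr7:118733239-118740609, and 48, chr7:118984485-118991855, which have the same length, had equal estimated counts in all 90 libraries, so their levels are not independent.

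The 10 intervals that took the most counts were also among the most variable between libraries of the same group. When each library's log2(CPM + 0.5) was set against its group mean, 11 intervals followed interval 1 with a Pearson r above 0.8 over the 89 libraries. With it they make a set of 12: intervals 1 to 10, 15, chr17:57187911-57207910, and 17, chr3:102594467-102614466. Their SD within groups lay between 0.92 and 1.47 on the log2 scale, against 0.06 to 0.48 for 183 other intervals. Among the 66 pairs of the 12 intervals, r lay between 0.83 and 0.99, with a median of 0.96. The points share their libraries, so r describes a common movement and carries no p. These sets were drawn after the values were seen.

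As a share of all counts, the 12 intervals ranged from 0.0963% to 11.7% between libraries, a 122-fold range. The lowest shares were in MS-158, a low-dose library of the cardiomyocytes at 9 h, MS-145, a low-dose library of the renal cells at 24 h, and MS-172, a low-dose library of the cardiomyocytes at 24 h. The highest was in MS-181, a vehicle library of the hepatocytes at 24 h, where the other 3 vehicle libraries in use held 1.34% to 2.498%. The spread was therefore present inside groups of one cell type, dose and time. The 3 libraries with the lowest shares were also the shallowest of their groups: MS-158 held 17494079 estimated counts against 40864839 to 61897142 in the rest of its group, MS-145 15078809 against 30860544 to 32441592, and MS-172 11519925 against 19551242 to 27585537. MS-137 and MS-178, at 11415878 and 14497025 estimated counts also among the shallowest libraries, held 1.81% and 3.22% on the 12 intervals. Over 89 libraries the share of the 12 intervals had a Pearson r of 0.28 and a Spearman rho of 0.14 with the total count, and an r of -0.68 and a rho of -0.87 with the percent of counts on transcripts, of which the intervals are the complement.

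A further 5 intervals had an SD within groups above 0.7 and a negative r with interval 1: intervals 12, chr7:11648823-11660433, 23, chr14:78499415-78519414, 25, chr1:165692329-165712328, 96, chr5:16812705-16832704, and 145, chr10:46931080-46940464. Their r with interval 1 within groups lay between -0.55 and -0.72, and their SD within groups between 0.84 and 1.39. Over the libraries of 1 cell type, not set against their group means, r also takes in shifts with dose and time. This r was -0.26 to -0.48 in hepatocytes, -0.46 to -0.78 in renal cells and -0.50 to -0.61 in cardiomyocytes. For the other 11 of the 12 intervals it was 0.27 to 0.98 in hepatocytes, 0.86 to 0.99 in renal cells and 0.85 to 0.99 in cardiomyocytes. The r within groups was not taken by cell type. Intervals 23 and 25, on different chromosomes, had an r of 0.998 with each other within groups, and the ratio of their counts stayed between 1.17 and 1.89 with a median of 1.50. The 5 intervals took 0.0249% to 2.36% of the counts. Their share had an r of -0.33 and a rho of -0.18 with the total count over the 89 libraries, and within cell types an r of -0.40 in hepatocytes, -0.31 in renal cells and -0.43 in cardiomyocytes. The highest shares were those of MS-172 and MS-158, which had low shares of the 12 intervals and low totals. Next came MS-185 at 1.16% and MS-182 at 1.06%, hepatocyte vehicle libraries with 2.12% and 1.34% on the 12 intervals, while MS-145 held 0.924% on the 5 intervals. In MS-183, 3 of the 5 (intervals 23, 25 and 96) were among those far above their median.

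The other 183 intervals together took 1.35% to 1.74% of the counts in each of the 89 libraries, a 1.29-fold range. They are what remained once the intervals of wide spread had been taken out, so their even share follows from how the sets were drawn. Within groups their r with interval 1 ran from -0.74 to 0.76 over the 89 libraries. Over the libraries of 1 cell type, not set against group means, it ran from -0.52 to 0.31 in hepatocytes, -0.83 to 0.79 in renal cells and -0.71 to 0.74 in cardiomyocytes. Some of the 183 therefore ran against interval 1 as strongly as the 5 did, and the 5 are set apart by their spread. What the 17 variable intervals have in common, RNA quality and the handling of the libraries were not tested.

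**Figure D1:**
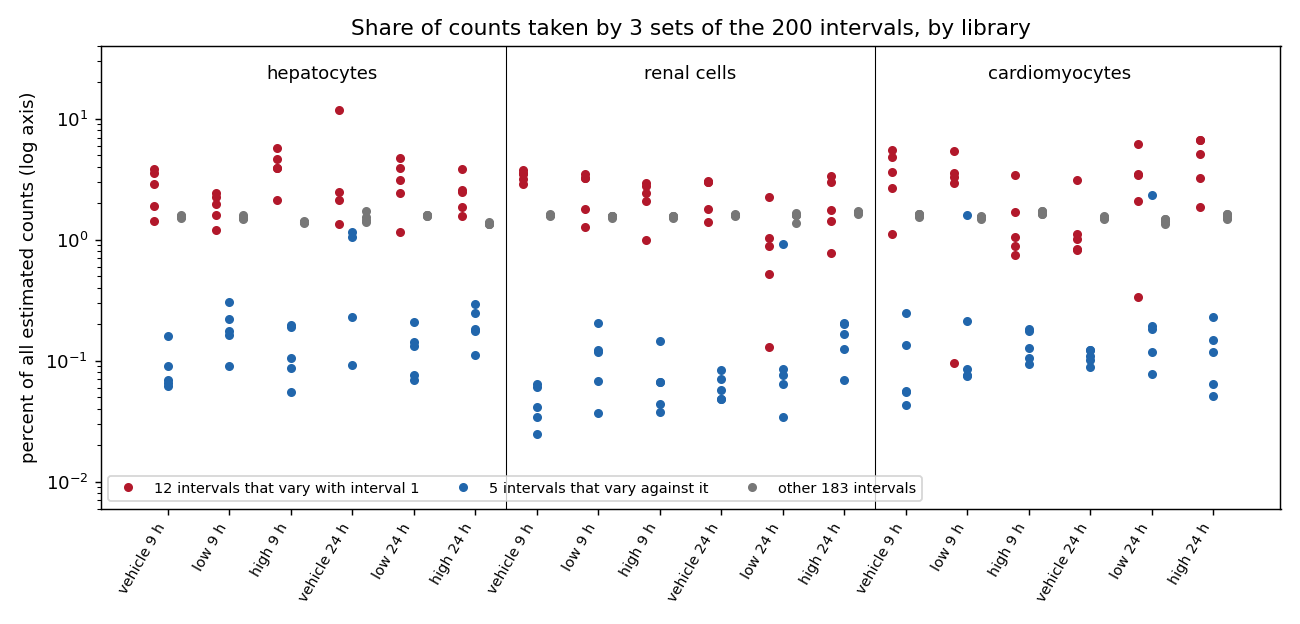
Percent of all estimated counts (vertical log axis) in each library of the 18 groups (horizontal axis), as 1 point per library and set: the 12 intervals that follow interval 1, the 5 of wide spread that move against it and the other 183. The other 183 intervals form a flat band between 1.35% and 1.74%, while the 12 intervals spread from 0.0963% to 11.7%.

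**Figure D2:**
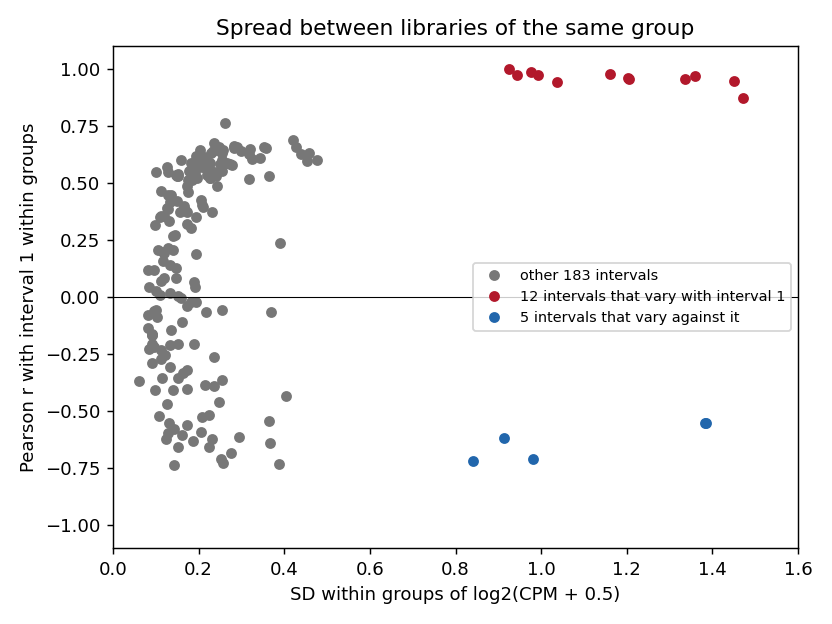
For each of the 200 intervals, the SD of log2(CPM + 0.5) within groups (horizontal axis) and the Pearson r with interval 1 within groups (vertical axis) over 89 libraries. The 12 intervals at the top right have SDs from 0.92 to 1.47, the 5 at the bottom right from 0.84 to 1.39, and the other 183 lie at or below 0.48.

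Levels in the 3 cell types are described in vehicle cultures at 9 h. The choice bears on them: an interval present in only 1 cell type has a median near 0 over the libraries and could not enter, while one absent from 1 cell type could. The levels are therefore given with no p-value, and they say nothing of how often intervals belong to 1 cell type. Fits of the kind used for the later comparisons gave the log2 fold changes and SEs between cell types, and their calls are not reported. In bulk RNA, fewer cells of a type and less RNA per cell cannot be told apart.

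By group means, 102 intervals differed by less than 1 on the log2 scale between the highest and the lowest cell type, 72 by 1 to 3 and 26 by more than 3. Hepatocytes were the lowest cell type for 115 intervals, cardiomyocytes for 53 and renal cells for 32. By more than 2 on the log2 scale, 8 intervals stood above both other cell types in hepatocytes and none did so in renal cells or cardiomyocytes, while 18 stood below both others in hepatocytes, 2 in renal cells and 2 in cardiomyocytes. The choice favours such low cases over high ones, so their numbers are not a result.

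Interval 28, chr1:141087906-141097194, had the largest excess in hepatocytes, with 1773, 1967, 2114, 2134 and 2266 CPM in the 5 hepatocyte libraries against 153, 157, 159, 159.7 and 164 CPM in renal cells and 122, 123, 123, 125 and 125 CPM in cardiomyocytes (log2 fold change 3.68, SE 0.08 against renal cells). Interval 29, chr1:84450664-84470329, had 1365, 1401, 1466, 1477 and 1640.4 CPM in hepatocytes, 125, 125, 125, 127 and 131 CPM in renal cells and 34.3, 34.6, 34.8, 34.8 and 35.9 CPM in cardiomyocytes (log2 fold change 3.51, SE 0.04 against renal cells). Interval 124, chr8:39738315-39758314, had 347, 357, 375, 391 and 426 CPM in hepatocytes, 27.8, 29.3, 30.5, 32.2 and 32.5 CPM in renal cells and 6.16, 7.79, 8.24, 8.41 and 9.31 CPM in cardiomyocytes (log2 fold change 3.61, SE 0.05 against renal cells). In each of these intervals every hepatocyte library lay above every library of the other cell types. The other 5 with such an excess were intervals 158, 132, 122, 150 and 32.

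Some intervals were nearly absent from hepatocytes, and these entered the 200 through their levels in renal cells and cardiomyocytes. Interval 18, chr1:205950872-205955841, had 572, 582, 586, 592 and 619 CPM in cardiomyocytes, 213, 218, 220.3, 222 and 223 CPM in renal cells and 0, 0, 0.0345, 0.0587 and 0.0649 CPM in hepatocytes. Interval 22, chr18:37710807-37715642, had 517, 519.6, 534, 535 and 549.6 CPM in cardiomyocytes, 234, 236, 239, 239.7 and 240.3 CPM in renal cells and 0.525, 0.53, 0.571, 0.651 and 0.69 CPM in hepatocytes. They had among the largest excesses in cardiomyocytes over the next cell type, with log2 fold changes over renal cells of 1.54 and 1.27. Interval 81, chr7:70289069-70292064, present in all 3, had 187, 187, 194, 196 and 196 CPM in cardiomyocytes, 48.1, 49.2, 49.3, 49.3 and 52.3 CPM in renal cells and 51.4, 52.9, 54.4, 57.9 and 58.2 CPM in hepatocytes (log2 fold change 2.06, SE 0.03 for cardiomyocytes over renal cells).

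Renal cells had the highest levels of interval 24, chr15:51365735-51368605, with 542, 545, 548, 557 and 558 CPM, against 175, 178, 179.9, 183 and 193 CPM in cardiomyocytes and 0.195, 0.293, 0.518, 0.623 and 0.705 CPM in hepatocytes. Interval 174, chr5:59447149-59451848, had 87.8, 90.1, 90.3, 91.4 and 96 CPM in renal cells, 31.4, 33.7, 34, 36.2 and 37 CPM in cardiomyocytes and 0, 0.0293, 0.0328, 0.0345 and 0.0671 CPM in hepatocytes. Interval 179, chr19:824921-830376, had 85.7, 89.1, 91, 91 and 91.2 CPM in renal cells, 34.7, 34.7, 35.6, 35.8 and 36.3 CPM in hepatocytes and 24.9, 25.1, 25.2, 25.3 and 26.7 CPM in cardiomyocytes. Renal cells lay above cardiomyocytes in each, with log2 fold changes of cardiomyocytes over renal cells of -1.49, -1.29 and -1.71.

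Over all hepatocyte libraries in use, 8 of the 200 intervals had a median below 1 CPM, against none in renal cells and in cardiomyocytes. Interval 41, chr7:117156254-117176253, was the reverse case in cardiomyocytes, at a mean of 2.08 CPM against 168 CPM in hepatocytes and 217 CPM in renal cells. Interval 8 was the only one of the 12 variable intervals with a range over 2 on the log2 scale between cell types, at means of 93.2 CPM in renal cells, 1847 CPM in cardiomyocytes and 1998 CPM in hepatocytes. The most even were intervals 17, 30, chr1:91064429-91070992, and 153, chr4:81233314-81236995. For interval 30 the libraries held 129.7, 130.4, 133, 134 and 143 CPM in hepatocytes, 133, 137, 138, 139 and 140.2 CPM in renal cells and 126, 137, 137, 140.0 and 162 CPM in cardiomyocytes, and the groups overlapped.

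**Figure D3:**
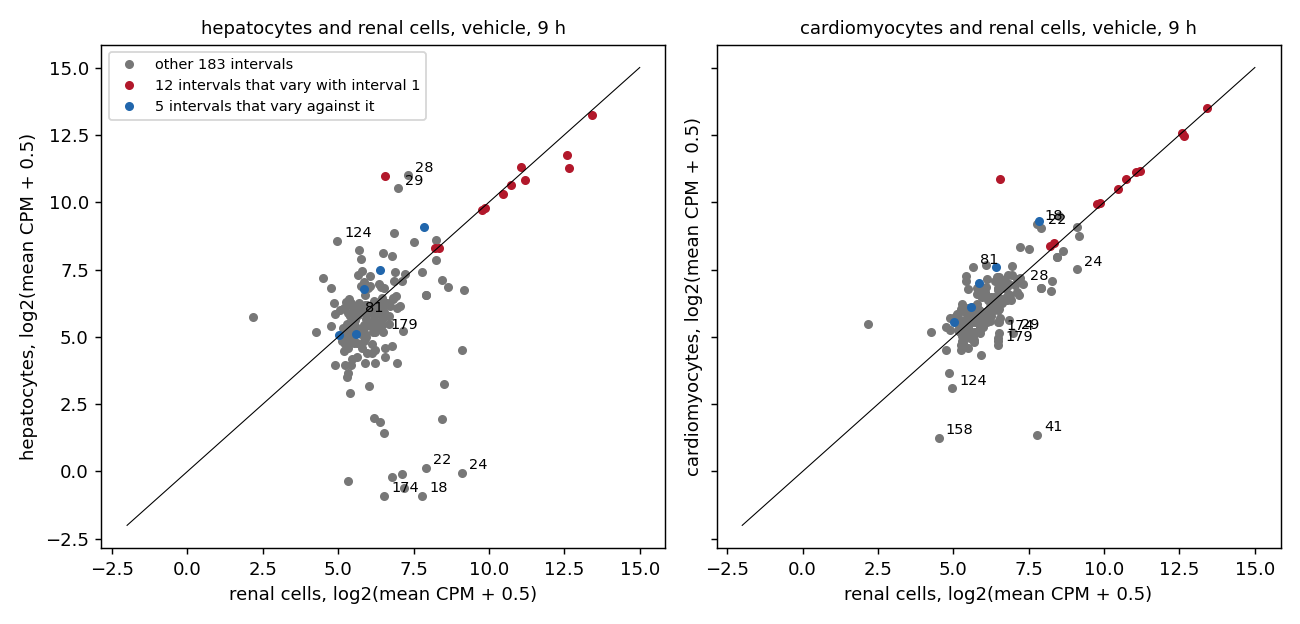
Mean level of each of the 200 intervals in vehicle cultures at 9 h, as log2(mean CPM + 0.5), in renal cells (horizontal axis) against hepatocytes (left) or cardiomyocytes (right), with the line of equal levels and the ranks of intervals named in the text. Intervals nearly absent from hepatocytes, among them 22, 24 and 174, lie at the bottom of the left panel, and intervals 41 and 158, at 2.08 and 1.90 CPM in cardiomyocytes, lie farthest below the line in the right panel.

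Culture time was compared in vehicle cultures, 24 h against 9 h. In this and all later comparisons a call is an adjusted p of at most 0.05 by the quasi-likelihood test of edgeR, adjusted by Benjamini-Hochberg over all transcripts and intervals tested, together with a fold change of at least 1.51. In renal cells 5 of the 200 intervals were higher and 3 lower at 24 h, where 4.61% and 4.2% of all targets were. In cardiomyocytes 1 was higher and 4 lower, against 4.58% and 2.78% of all targets. The total called in cardiomyocytes was 3 without MS-168, 16 without MS-169 and 13 without MS-155. Intervals 86, chr4:85345627-85365626, and 138, chr15:30528213-30548212, fell in renal cells and in cardiomyocytes. In renal cells interval 86 went from 346, 355, 366, 370.0 and 385 CPM at 9 h to 74.8, 80.3, 82.4, 84.6 and 90.2 CPM at 24 h (log2 fold change -2.07, SE 0.05, adjusted p = 3.1e-10), and interval 138 from 336, 338, 345, 348 and 364 CPM to 74.2, 75.3, 76.2, 77 and 80.4 CPM (log2 fold change -2.10, SE 0.03, adjusted p = 1.6e-11). In cardiomyocytes interval 138 went from 230.1, 246, 254, 259.8 and 260.1 CPM to 53.5, 57.1, 59.9, 61 and 66.4 CPM (log2 fold change -2.07, SE 0.06, adjusted p = 2.3e-09). The 9 h and 24 h libraries did not overlap in any of these.

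In hepatocytes 25 intervals were higher and 35 lower at 24 h, against 16.9% and 17.8% of all targets. With MS-183 in the group the number called was 2 in place of 60, and over all targets it was 590 in place of 4603 higher and 4852 lower. The 2 were intervals 18 and 22, and interval 18, at or near 0 at 9 h, had enough counts for the test only through its 24 h libraries. Interval 14, chr5:155890283-155910282, fell from 16.4, 20.8, 24.3, 24.4 and 27 CPM at 9 h to 4.09, 4.73, 4.86 and 5.34 CPM at 24 h (log2 fold change -2.27, SE 0.16, adjusted p = 3.7e-07). Interval 22, nearly absent from hepatocytes at 9 h, rose from 0.525, 0.53, 0.571, 0.651 and 0.69 CPM to 2.77, 3.34, 4.33 and 4.99 CPM (log2 fold change 2.68, SE 0.19, adjusted p = 4.1e-07). The 5 intervals that move against interval 1 were all called higher, from a log2 fold change of 1.46 for interval 96 to 4.06 for interval 25, whose 9 h and 24 h libraries overlapped. The 12 variable intervals also all lay above 0 in this comparison, at a median log2 fold change of 0.44 with 1 called, so the opposite movement within groups did not extend to it. Both sets likewise lay above 0 in high-dose hepatocytes at 9 h and low-dose cardiomyocytes at 24 h. The 24 h group is the series of libraries numbered apart, and its series and the culture time cannot be told apart.

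Exposure was compared with vehicle at the same time in each cell type, which asks whether the abundant intervals respond to thioacetamide-S-oxide. In hepatocytes at 9 h, 2 of 196 tested intervals were called at 0.025 mM, 1 higher and 1 lower, against 1.52% and 1.17% of all targets. The number was 4 without MS-96, 1 without MS-98, MS-91 or MS-92 and 10 without MS-95. At 0.125 mM, 11 of 197 were higher and 16 lower, against 10.9% and 10.7%. Of the 11, 3 belonged to the 12 variable intervals. The untested intervals were those with too few counts in hepatocytes, intervals 18, 26 and 174 at 0.125 mM and also 196 at 0.025 mM. Both shares at the high dose lie below the background.

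Interval 41 gave the largest decrease in hepatocytes at 9 h at either dose. Its vehicle libraries held 118, 132, 171, 194 and 225 CPM, the 0.025 mM libraries 82.5, 85.7, 86.5, 94.7 and 102 CPM and the 0.125 mM libraries 54.5, 55.5, 61.1, 67.5 and 70.2 CPM. Each dose lay below all vehicle libraries (log2 fold change -0.93, SE 0.16, adjusted p = 0.003 at 0.025 mM and log2 fold change -1.38, SE 0.17, adjusted p = 4.2e-05 at 0.125 mM). Interval 86 fell at 0.125 mM from 9.04 ± 1.73 CPM in vehicle to 3.59 ± 0.466 CPM (log2 fold change -1.24, SE 0.13, adjusted p = 9.7e-06, SD over n = 5). Interval 178, chr2:47102091-47122090, fell from 12.1 ± 1.35 CPM in vehicle to 5.23 ± 0.39 CPM (log2 fold change -1.14, SE 0.11, adjusted p = 3.7e-06). In both, every treated library lay below every vehicle library.

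Among the increases in hepatocytes at 0.125 mM and 9 h, interval 81 went from 51.4, 52.9, 54.4, 57.9 and 58.2 CPM to 86.5, 101, 101, 102 and 104 CPM (log2 fold change 0.92, SE 0.07, adjusted p = 4.2e-07). Interval 135, chr14:81340-101339, rose from 45.5 ± 8.35 CPM in vehicle to 85 ± 8.65 CPM (log2 fold change 0.99, SE 0.10, adjusted p = 5.8e-06). Interval 46, chr3:153115021-153125119, rose from 0.366 ± 0.201 CPM in vehicle to 0.77 ± 0.0654 CPM (log2 fold change 1.08, SE 0.31, adjusted p = 0.013). All treated libraries lay above all vehicle libraries in the 3 intervals, and only interval 46 was below 1 CPM in each.

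At 24 h in hepatocytes, where all but interval 174 were tested, 35 intervals were higher and 24 lower at 0.025 mM, against 18.7% and 17.3% of all targets. At 0.125 mM, 15 were higher and 20 lower, against 14.5% and 12.5%. With MS-183 in the vehicle group these totals were 4 and 0 in place of 59 and 35. Over all targets they were 672 in place of 5115 higher and 4728 lower at 0.025 mM, and 316 in place of 3841 higher and 3307 lower at 0.125 mM. With it, none of the changes at 0.125 mM described next was called, and at 0.025 mM those of intervals 18 and 104 were called and that of interval 158 was not. Both comparisons share the 4 vehicle libraries numbered apart, and the series of libraries and the absence of exposure cannot be told apart there.

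Interval 104, chr6:24182367-24199891, rose at both doses, from 2.85, 3.53, 3.68 and 4.33 CPM in vehicle to 14.6, 17.9, 18.6, 19.2 and 23.1 CPM at 0.025 mM (log2 fold change 2.35, SE 0.14, adjusted p = 9.9e-08) and 9.8, 12.6, 13.4, 15.1 and 15.7 CPM at 0.125 mM (log2 fold change 1.85, SE 0.15, adjusted p = 3e-06). Interval 14 rose from 4.09, 4.73, 4.86 and 5.34 CPM to 13, 14.1, 14.9, 17.8 and 17.8 CPM at 0.125 mM (log2 fold change 1.66, SE 0.12, adjusted p = 2e-06). Interval 46 rose from 0.697 ± 0.0957 CPM in vehicle to 1.94 ± 0.524 CPM (log2 fold change 1.43, SE 0.25, adjusted p = 0.00099). Intervals 104 and 14 had fallen in vehicle between 9 and 24 h, when the vehicle libraries of interval 104 held 7.27, 8.4, 8.56, 9.27 and 9.4 CPM.

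Interval 158, chr7:133194374-133214373, fell at both doses, from 330.3, 364, 401 and 403 CPM in vehicle to 69, 72, 72.7, 74.9 and 96.6 CPM at 0.025 mM (log2 fold change -2.32, SE 0.10, adjusted p = 8.6e-09) and 78.8, 90.1, 94.2, 97.1 and 126 CPM at 0.125 mM (log2 fold change -1.99, SE 0.13, adjusted p = 6.4e-07). Interval 4, of the 12 variable intervals, went from 4803, 9569, 13237 and 22040.1 CPM to 599, 1640.3, 1929, 2045 and 3125 CPM at 0.125 mM (log2 fold change -2.85, SE 0.51, adjusted p = 0.0011). Interval 41 fell at 0.125 mM from 220.2, 255, 282 and 388 CPM to 83.4, 94.9, 96.7, 105 and 108 CPM (log2 fold change -1.58, SE 0.10, adjusted p = 7.3e-07), the same direction as at 9 h. Interval 18 was also called lower at 0.025 mM, from 0.543, 0.563, 0.612 and 1.17 CPM to 0, 0, 0.0313, 0.0358 and 0.0373 CPM. Its treated libraries are at or near 0, so it had enough counts for the test only through its vehicle libraries. Its p and fold change are therefore not given. In vehicle at 9 h the means had been 146 CPM for interval 158, 168 CPM for interval 41 and 0.0316 CPM for interval 18. Each lay below all vehicle libraries of that interval at 24 h. At 0.125 mM, 3 of the 5 intervals that move against interval 1 were also called lower, and 4 of them at 0.025 mM.

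In renal cells at 9 h, 5 intervals were higher and 3 lower at 0.125 mM, against 2.48% and 3.98% of all targets, and at 0.5 mM 9 were higher and 17 lower, against 11.5% and 10.8%. All 200 intervals were tested. Of the 17 lower calls, 3 belonged to the 12 variable intervals. With all renal groups in 1 fit, 5 were called at 0.125 mM.

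The largest changes in renal cells at 9 h were the decreases of intervals 86 and 138, on chromosomes 4 and 15. Interval 86 went from 346, 355, 366, 370.0 and 385 CPM in vehicle to 47.2, 47.6, 47.7, 50.2 and 53.2 CPM at 0.125 mM (log2 fold change -2.89, SE 0.04, adjusted p = 6.7e-13) and 27.9, 28.9, 30.6, 30.8 and 32.7 CPM at 0.5 mM (log2 fold change -3.61, SE 0.04, adjusted p = 2.5e-14). Interval 138 went from 336, 338, 345, 348 and 364 CPM to 44.7, 45.3, 45.6, 47.9 and 49.2 CPM (log2 fold change -2.89, SE 0.03, adjusted p = 3.6e-13) and 29.9, 30.7, 32.2, 32.6 and 34 CPM (log2 fold change -3.46, SE 0.03, adjusted p = 1.6e-14). The groups of the 3 doses did not overlap in either interval, and the spread within a group was small beside the change. Over the 30 renal libraries their log2 levels had a Pearson r of 0.99, over the 30 cardiomyocyte libraries of 0.91 and over the 29 hepatocyte libraries of -0.07. These r take in the shifts between doses and times, and within groups over the 89 libraries r was 0.15. The ratio of their counts ran from 0.51 to 7.98 over the 89 libraries, so their counts were not in a fixed ratio. Interval 152, chr16:54450927-54459566, fell at 0.5 mM from 3.99 ± 0.451 CPM in vehicle to 1.23 ± 0.204 CPM (log2 fold change -1.71, SE 0.14, adjusted p = 4.4e-07).

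The largest increases in renal cells at 9 h were those of 3 intervals that are higher in hepatocytes, intervals 29, 124 and 158. At 0.5 mM interval 29 went from 125, 125, 125, 127 and 131 CPM to 254, 259.8, 268, 272 and 285 CPM (log2 fold change 1.06, SE 0.03, adjusted p = 1.9e-11), with 184, 199.6, 204, 205 and 206 CPM at 0.125 mM (log2 fold change 0.66, SE 0.03, adjusted p = 6.3e-08). Interval 124 went from 27.8, 29.3, 30.5, 32.2 and 32.5 CPM to 59.3, 61.7, 65.1, 65.7 and 69.4 CPM (log2 fold change 1.05, SE 0.05, adjusted p = 2.5e-09), with 50.4, 50.7, 51.4, 57.5 and 68.7 CPM at 0.125 mM (log2 fold change 0.88, SE 0.09, adjusted p = 1.9e-05). Its call at 0.125 mM was lost with all renal groups in 1 fit. Interval 158 went from 19.99, 22.5, 22.6, 22.9 and 23.4 CPM to 46.1, 46.9, 51.7, 52.6 and 55.8 CPM (log2 fold change 1.16, SE 0.06, adjusted p = 4.7e-09). The vehicle libraries lay below both doses in all 3 intervals. At 0.125 mM intervals 23 and 25 were called at larger log2 fold changes, 2.22 and 2.18, with overlapping groups.

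At 24 h in renal cells no interval was called at 0.125 mM by edgeR or by DESeq2, while 14 of 200 had an unadjusted p under 0.05, as did 6.12% of all targets. Of all targets 0.0367% were higher and 0.00815% lower by the adjusted call. The number called was 3 with all renal groups in 1 fit and 1 without MS-145. At 0.5 mM 12 intervals were higher and 22 lower, against 13.9% and 14.9% of all targets. The higher calls were 9 of the 183 less variable intervals and 3 of the 5 that move against interval 1.

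Intervals 29, 124 and 158 again gave the largest increases at 0.5 mM, and larger ones than at 9 h. Interval 29 went from 127, 130.2, 140.2, 149 and 152 CPM to 1306, 1458, 1483, 1685 and 1700.2 CPM (log2 fold change 3.34, SE 0.08, adjusted p = 2.6e-10), a range that overlaps that of vehicle hepatocytes at 9 h. Interval 124 went from 35.1, 35.1, 36.3, 48.4 and 54.5 CPM to 299.9, 329.7, 401, 428 and 546 CPM (log2 fold change 3.15, SE 0.20, adjusted p = 2.9e-07). Interval 158 went from 28.5, 31.2, 34.7, 38.9 and 40.8 CPM to 215, 239, 268, 271 and 287 CPM (log2 fold change 2.77, SE 0.12, adjusted p = 1.4e-08). At 0.125 mM they held 81.4, 128, 139.7, 143 and 149 CPM, 33.6, 35.1, 41.6, 72.4 and 135 CPM and 28.3, 32.8, 33.8, 41.3 and 47.2 CPM, overlapping vehicle in each. In hepatocytes at 24 h interval 158 was called in the other direction.

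The largest decreases in renal cells at 0.5 mM and 24 h were those of intervals 98, chr4:123636541-123641709, 104 and 155, chr16:31946744-31956253. Interval 98 went from 119, 119.7, 122, 126 and 138 CPM to 24.8, 27.4, 27.9, 29.6 and 33.5 CPM (log2 fold change -2.23, SE 0.09, adjusted p = 8e-09). Interval 104 went from 84.5, 84.6, 88.7, 93.3 and 93.9 CPM to 24.6, 26, 27.2, 27.9 and 30.3 CPM (log2 fold change -1.82, SE 0.06, adjusted p = 2.3e-09). Interval 155 went from 86.5, 86.9, 87.4, 87.5 and 91.6 CPM to 24.5, 26.5, 26.6, 27.6 and 29.6 CPM (log2 fold change -1.82, SE 0.05, adjusted p = 9.6e-10). All treated libraries lay below all vehicle libraries. Intervals 86 and 138, already lower in vehicle at 24 h than at 9 h, fell further to 26, 27.5, 28.5, 28.5 and 31.5 CPM (log2 fold change -1.65, SE 0.07, adjusted p = 8e-09) and 29.1, 29.3, 29.5, 30.2 and 32.6 CPM (log2 fold change -1.46, SE 0.04, adjusted p = 1.1e-09).

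**Figure D4:**
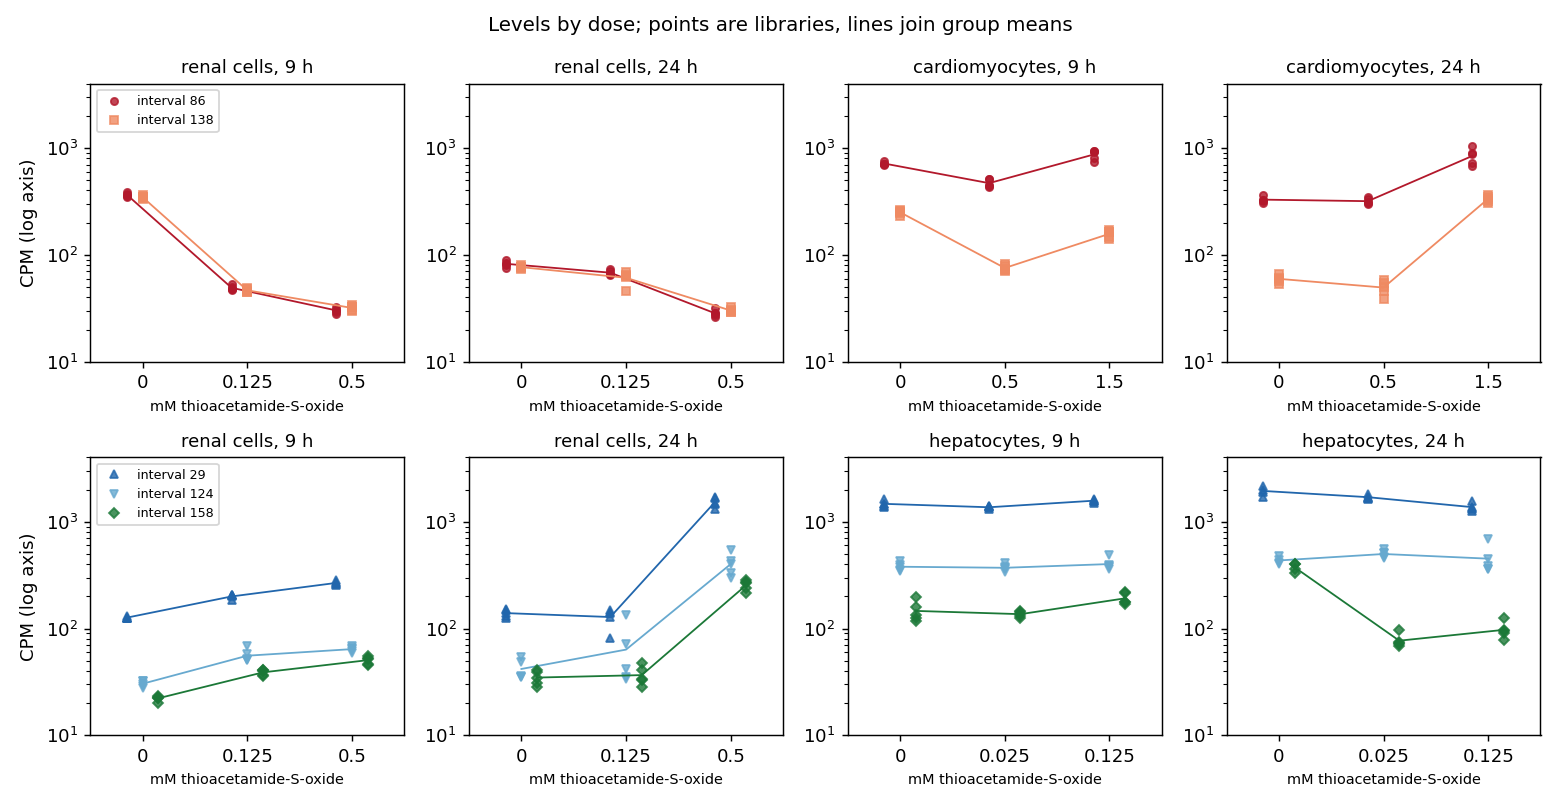
CPM (vertical log axis) of intervals 86 and 138 in renal cells and cardiomyocytes (top) and of intervals 29, 124 and 158 in renal cells and hepatocytes (bottom) by dose in mM (horizontal axis, 0 is vehicle), with 1 point per library and lines through the group means. Interval 86 falls in renal cells at 9 h from a vehicle mean of 365 CPM to 30.2 CPM at 0.5 mM, and interval 29 rises at 24 h from 140 to 1526 CPM.

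In cardiomyocytes at 9 h, 1 interval was higher and 2 were lower at 0.5 mM, against 1.04% and 0.964% of all targets. The total was 5 without MS-158, 5 by DESeq2 and 7 with all cardiomyocyte groups in 1 fit. At 1.5 mM 6 were higher and 8 lower, against 6.37% and 5.95%. The total at 1.5 mM was 23 in place of 14 without MS-161 or without MS-155, and 9 with all cardiomyocyte groups in 1 fit. The low-dose and high-dose groups were sequenced more deeply, with 17494079 to 61897142 and 42937709 to 46645482 estimated counts against 19467515 to 27585600 in vehicle, the low-dose group having 1 shallow library.

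Interval 150, chr5:150081427-150084110, gave the largest increase in cardiomyocytes at 1.5 mM and 9 h, from 20.6, 21.3, 21.9, 23.1 and 24.2 CPM to 89.5, 90.4, 98.3, 105 and 106 CPM (log2 fold change 2.04, SE 0.05, adjusted p = 4.4e-11). Interval 87, chr10:109803240-109805658, went from 32.6, 33.6, 36.1, 37.9 and 39.5 CPM to 111, 112, 113, 116 and 122 CPM (log2 fold change 1.58, SE 0.05, adjusted p = 7.2e-10). Interval 13, chr10:45813143-45821990, went from 118, 133, 134, 136 and 149 CPM to 379.9, 388, 399.8, 440.1 and 452 CPM (log2 fold change 1.53, SE 0.07, adjusted p = 9.1e-09), with 180.1, 193, 229, 264 and 407 CPM at 0.5 mM (log2 fold change 0.97, SE 0.19, adjusted p = 0.019). No treated library at 1.5 mM overlapped vehicle in the 3 intervals. The call of interval 13 at 0.5 mM was lost without any single vehicle library of the group, MS-151 to MS-155, at log2 fold changes of 0.92 to 0.99.

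The largest decreases in cardiomyocytes at 1.5 mM and 9 h among intervals whose groups did not overlap were smaller. Interval 104 went from 103, 111, 113, 116 and 117 CPM to 63.9, 64.5, 65.3, 69.2 and 70.9 CPM (log2 fold change -0.84, SE 0.04, adjusted p = 3.5e-08) and interval 81 from 187, 187, 194, 196 and 196 CPM to 118, 119, 119, 122 and 122 CPM (log2 fold change -0.77, SE 0.03, adjusted p = 1.8e-09). Interval 138 went from 230.1, 246, 254, 259.8 and 260.1 CPM in vehicle to 70.5, 72.5, 73.3, 78.3 and 81.9 CPM at 0.5 mM (log2 fold change -1.66, SE 0.12, adjusted p = 0.00016) and 140.5, 147, 163, 164 and 172 CPM at 1.5 mM (log2 fold change -0.76, SE 0.05, adjusted p = 1.3e-07). The lower dose thus lay below the higher one. A further 3 of the 8 lower calls belonged to the 12 variable intervals.

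At 24 h in cardiomyocytes no interval was called at 0.5 mM by edgeR, 40 of 200 had an unadjusted p under 0.05, as did 11.3% of all targets, and 0% of all targets were called by the adjusted p in either direction. DESeq2 called 1 interval and the fit with all cardiomyocyte groups 1. At 1.5 mM 20 intervals were higher and none lower, against 5.72% and 5.62% of all targets. Of the 20, 11 belonged to the 12 variable intervals, whose treated and vehicle libraries overlapped. For interval 1 the vehicle libraries held 3389, 3978, 4389, 4438 and 10375 CPM and the 1.5 mM libraries 6633, 10308, 15753, 19191 and 20314 CPM (log2 fold change 1.50, SE 0.38, adjusted p = 0.013). The total was 8 with all cardiomyocyte groups in 1 fit, 13 without MS-176, 12 without MS-166 or MS-170 and 11 without MS-167. The count rests largely on a set that varied as widely within groups, and the part of that variation in it was not tested.

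Of the other 9 intervals, interval 138 rose most, from 53.5, 57.1, 59.9, 61 and 66.4 CPM to 308, 318, 336, 347 and 364 CPM (log2 fold change 2.54, SE 0.07, adjusted p = 8.1e-10). Interval 86 went from 309, 317, 328, 328 and 361 CPM to 672, 730.4, 882, 899 and 1035 CPM (log2 fold change 1.41, SE 0.09, adjusted p = 9.7e-07), and interval 13 from 118, 125, 159, 184 and 293 CPM to 373, 398, 419, 451 and 623 CPM (log2 fold change 1.42, SE 0.24, adjusted p = 0.00096). No treated library overlapped vehicle in these 3 intervals. Intervals 86 and 138, which fell in renal cells at 0.5 mM at both times, therefore rose in cardiomyocytes at 24 h, at another dose.

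**Figure D5:**
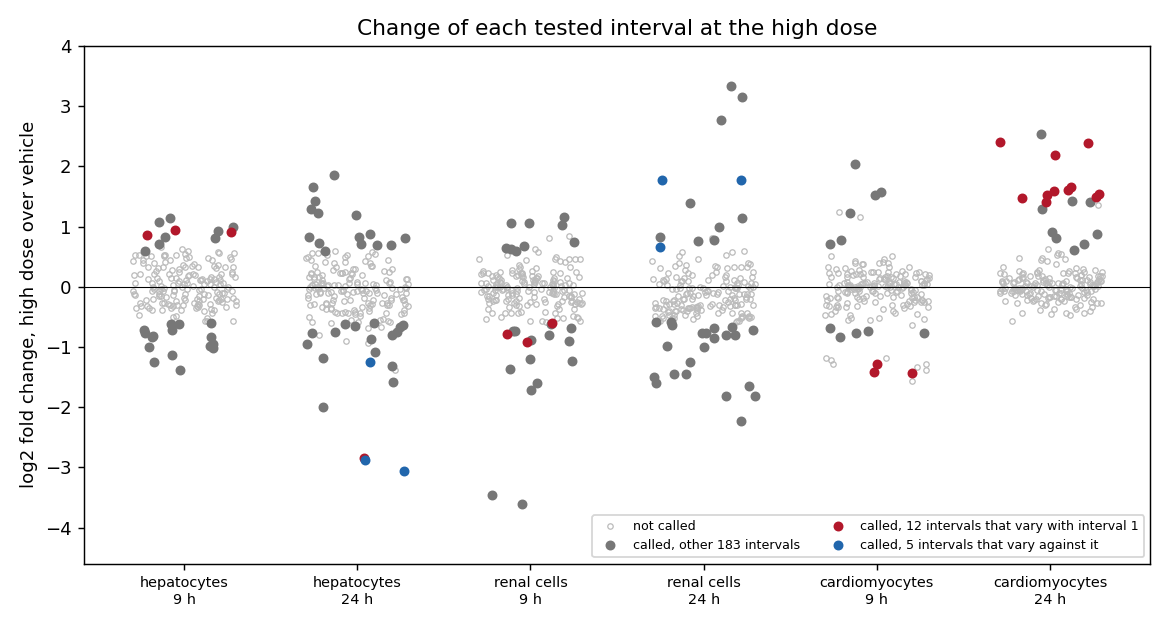
Log2 fold change of each tested interval at the high dose over vehicle (vertical axis) in the 6 comparisons (horizontal axis, points spread sideways for legibility). Filled points were called, coloured by set, and open points were not. Intervals 86 and 138 lie lowest in renal cells at 9 h, intervals 29, 124 and 158 highest in renal cells at 24 h, and the 11 called members of the 12 variable intervals lie above 0 in cardiomyocytes at 24 h.

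The high-dose change itself was compared between 24 and 9 h by an interaction term. It differed in 48 intervals in hepatocytes, where 30.9% of all targets were called, in 30 in renal cells, against 13.9%, and in 23 in cardiomyocytes, against 6.8%. Of these 23, 20 had a positive difference, and in cardiomyocytes the 12 variable intervals all lay below 0 at 9 h and above 0 at 24 h. In renal cells interval 29 had a larger increase at 24 h (difference of log2 fold changes 2.29, SE 0.08, adjusted p = 4e-14), and interval 138 a smaller decrease (2.02, SE 0.05, adjusted p = 1.1e-15). In cardiomyocytes the change of interval 138 differed most among the 183 less variable intervals (3.30, SE 0.08, adjusted p = 5.4e-16), and that of interval 150 was smaller at 24 h (-0.76, SE 0.08, adjusted p = 1.2e-06). In hepatocytes the change of interval 104 was higher at 24 h (2.19, SE 0.18, adjusted p = 1e-08) and that of interval 158 lower (-2.43, SE 0.18, adjusted p = 2.3e-09), both resting on the vehicle libraries numbered apart. With MS-183 in that group the number in hepatocytes was 7 in place of 48, against 8.77% of all targets, with interval 104 among them (2.16, adjusted p = 0.0004) and interval 158 not (-2.12, adjusted p = 0.094).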

How the data were processed

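RNA was measured in 90 libraries, and groups and library numbers came from the sample labels. The authors deposited 1 table per library with estimated counts and TPM for 65166 targets, from Kallisto 0.42.4 on Rnor_6.0 per the labels. What the intervals are and how they were drawn is not given in the sources used here. Estimated counts were rounded, and transcripts and intervals were fitted together for each pair of groups with edgeR 4.0.16 under R 4.3.3 (filterByExpr and TMM, then glmQLFit and glmQLFTest) and Benjamini-Hochberg adjustment over all targets tested. Calls required adjusted p ≤ 0.05 and an absolute change of 0.41 or more in natural log. The SE is the log2 fold change divided by the square root of F. CPM is over all estimated counts, and the deposited TPM was used only for levels per length. Correlations used log2(CPM + 0.5). Depth was 11415878 to 61897142 estimated counts, and 2993135 in MS-183, which was left out.

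The intervals and the lists were chosen with earlier results of these data known. Named intervals are the 10 highest, those at the edge, the most even and most uneven between cell types, neighbours within 20 kb, and those with the largest called changes whose groups did not overlap, 3 in each direction at the high dose and 1 at the low dose. Values named beyond these, at another dose, time or cell type, were chosen after they were seen. Alternatives were DESeq2 1.42.0, TMM from transcripts only, no filter, MS-183 kept, all groups of a cell type in 1 fit, each library left out, and 6 other rankings. For the interaction only MS-183 kept and each library left out were run, added after seeing the data. The code was tested on simulated data.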

Additional observations from a re-analysis of the deposited data

Results flagged for a closer look

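The summed share of the 200 intervals and the shares of intervals 1 to 3 were screened for a library far from its group in 72 sets of 4 or 5 libraries. The screen marks about 5% of groups by chance, and it marked 9 here, from 3 libraries. The measures overlap, because intervals 1 to 3 vary together and are part of the summed share. The 9 marks are therefore not independent and cannot be set against that 5%. MS-181, a vehicle library of the hepatocytes at 24 h, held 13.4% of its counts on the 200 intervals against 4.05% to 4.82% in the other 3 libraries, with 3.24% on interval 1 (others 0.317% to 0.371%), 1.70% on interval 2 (others 0.0950% to 0.150%) and 0.642% on interval 3 (others 0.0850% to 0.128%). MS-169, a vehicle library of the cardiomyocytes at 24 h, held 4.78% on the 200 intervals against 2.42% to 2.78%, with 1.04% on interval 1 (others 0.339% to 0.444%), 0.490% on interval 2 (others 0.0492% to 0.146%) and 0.449% on interval 3 (others 0.0773% to 0.134%). MS-141, a low-dose library of the renal cells at 24 h, held 3.91% on the 200 intervals against 2.21% to 2.66%.

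The high-dose change differed between 24 and 9 h, by the interaction term in edgeR, for 48 intervals in hepatocytes (24.1% of those tested, against 30.9% of all targets), 30 in renal cells (15%, against 13.9%) and 23 in cardiomyocytes (11.5%, against 6.8%). With MS-183 kept, the number in hepatocytes was 7. Of the 23 in cardiomyocytes, 20 had a positive difference. There the 12 variable intervals all lay below 0 at 9 h (median log2 fold change -1.28) and above 0 at 24 h (median 1.57). Their part in the 23 was not tested.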

How the results depend on the processing

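The choice of intervals rests on the measure: 116 of the 200 were also among the top 200 by median TPM and 19 when intervals were limited to those with whole counts in all libraries, and 163 or more under each of the other 4 rankings. With MS-183 kept, the number called in hepatocytes at 24 h was 4 (low dose), 0 (high dose), 2 (time) and 7 (high-dose change at 24 h minus 9 h). With all groups of a cell type in 1 fit, the low dose gave 5 (9 h) and 3 (24 h) in renal cells and 7 and 1 in cardiomyocytes, where the high dose gave 9 and 8. DESeq2 gave 5 and 1 for low-dose cardiomyocytes at 9 and 24 h. Without each library in turn, hepatocytes ranged at 9 h from 1 to 10 (low) and 22 to 27 (high) and at 24 h from 55 to 72 and 35 to 44, renal cells from 6 to 8, 24 to 32, 0 to 1 and 32 to 36, and cardiomyocytes from 2 to 5, 10 to 23, 0 to 0 and 11 to 21. Time in vehicle cultures ranged from 55 to 70 in hepatocytes, 7 to 10 in renal cells and 3 to 16 in cardiomyocytes. Numbers called between cell types are left out, because the choice used those levels. The high-dose change at 24 h minus 9 h, for which only MS-183 and the left-out libraries were run and were chosen after seeing the data, ranged from 46 to 51, 28 to 34 and 22 to 23. The other numbers called stayed within 1.5 times under the settings run. For the 40 named changes, none turned direction, 8 of 168 values under another setting and 5 of 392 with a library left out lost the call. With MS-183 kept, all 6 named changes of high-dose hepatocytes at 24 h were lost. The others were interval 124 in renal cells (low dose, 9 h, all groups in 1 fit) and interval 13 in cardiomyocytes (low dose, 9 h), without the filter and without each vehicle library. The cause was not tested. No paired analysis was possible because library numbers are not shared between groups.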
